A study of Mus musculus with 22 samples.

Results

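The 5 metastatic tumors (M1, M2, M3, M4 and M6) of a mouse model of tube-derived ovarian cancer were compared with 5 control fallopian tubes (CT1 to CT5) on a NanoString panel of mouse miRNAs. The panel holds 566 mouse miRNA probes, and the 174 of them with a mean normalized count of 50 or more in CT or in M are described here. Those 10 samples are part of a series of 22 mouse samples, which also holds doxycycline-induced fallopian tubes (FT1 to FT5) and plasma. In this model a Cre recombinase under the Pax8 promoter, switched on by doxycycline in Pax8-expressing cells such as the secretory cells of the tube, deletes Brca1 or Brca2 together with changes in further genes. The control tubes carried floxed alleles without induction. CT1 and CT3 were Brca1 fl/fl, CT2 was Brca1 fl/+, CT4 was Brca2 fl/fl and CT5 was Brca2 fl/+. M1 and M3 were Brca2 -/-, M2 and M6 were Brca1 -/+, and M4 was Brca2 -/+. M1 to M4 were labelled peritoneal metastatic tumors and M6 an ovarian metastatic tumor. Ages of the mice and the identity of the animal behind each tumor are not given in the sources used here, so M2 and M6 may or may not come from different mice, and the p-values measure the spread between these samples. The study had matching induced tube and metastasis from 2 mice, and M5, which it excluded, was not analysed here.

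A miRNA is a short RNA that pairs through its seed, bases 2 to 8 from the 5′ end, with sites in messenger RNAs and lowers their translation or stability. miRNAs with the same seed form a family, and members of a family can be made from several genomic loci. Many miRNAs mark the cell type they come from. In the fallopian tube the miR-34 and miR-449 family is made in ciliated cells, the miR-200 family in epithelial cells, and miR-143 and miR-145 in the smooth muscle of the tube wall.

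The mature sequences below, from RefSeq on the mouse build GRCm38.p6, belong to the families whose counts separated tumors from tubes, with the seed in capitals. RefSeq sequences were matched for 35 of the 45 miRNAs looked up. miR-30b, miR-34c, miR-378, miR-486, miR-532-5p, miR-2132, miR-2133, miR-2134, miR-2140 and miR-2141 are named only. The panel uses older names, and the arm was assigned from the probe's name and the RefSeq list, so miR-21 is shown as miR-21a-5p. miR-204-5p lies at chr19:22750610-22750631 on the plus strand within the span of Trpm3, and miR-135a-5p is made from chr9:106154140-106154162 on the plus strand and chr10:92072141-92072163 on the minus strand. Both arms of miR-34b come from the minus strand of chromosome 9 and miR-449a from within Cdc20b on chromosome 13, and miR-34b-5p and miR-449a share the seed GGCAGUG. miR-29c and a copy of miR-29b lie on chromosome 1, while miR-29a and the other copy of miR-29b lie on chromosome 6. The sequences shown for the miRNAs that were lower in the tumors are these.
miR-204-5p: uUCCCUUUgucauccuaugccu
miR-135a-5p: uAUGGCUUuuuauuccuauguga
miR-34b-5p: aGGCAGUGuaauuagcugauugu
miR-34b-3p: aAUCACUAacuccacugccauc
miR-449a-5p: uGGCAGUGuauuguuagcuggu
miR-29a-3p: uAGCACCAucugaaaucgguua
miR-29b-3p: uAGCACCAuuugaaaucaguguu
miR-29c-3p: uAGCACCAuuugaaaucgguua
miR-30a-5p: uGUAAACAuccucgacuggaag

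The miR-200 family is shown because its loci and its seeds divide it differently. miR-200a, miR-200b and miR-429 lie together on chromosome 4, and miR-200c and miR-141 lie together on chromosome 6. The seed AACACUG is shared by miR-200a and miR-141 and the seed AAUACUG by miR-200b, miR-200c and miR-429.
miR-200a-3p: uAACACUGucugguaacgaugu
miR-141-3p: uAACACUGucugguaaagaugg
miR-200b-3p: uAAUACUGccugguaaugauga
miR-200c-3p: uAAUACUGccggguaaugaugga
miR-429-3p: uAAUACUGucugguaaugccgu

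Among the miRNAs that were higher in the tumors, 2 families are shown with a member that did not pass the test, let-7a for the let-7 family and miR-19b for the miR-17-92 cluster. miR-93 and miR-25 lie within Mcm7 on chromosome 5, miR-1224 within Vwa5b2 on chromosome 16, and miR-126-3p within Egfl7 on chromosome 2.
let-7a-5p: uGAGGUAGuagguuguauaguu
let-7i-5p: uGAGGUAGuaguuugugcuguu
miR-98-5p: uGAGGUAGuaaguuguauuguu
miR-17-5p: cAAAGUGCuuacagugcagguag
miR-20a-5p: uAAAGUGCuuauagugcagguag
miR-93-5p: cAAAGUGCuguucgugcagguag
miR-25-3p: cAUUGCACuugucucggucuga
miR-19b-3p: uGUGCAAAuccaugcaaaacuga
miR-210-3p: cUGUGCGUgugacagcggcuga
miR-132-3p: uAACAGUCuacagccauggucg
miR-1224-5p: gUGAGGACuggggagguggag
miR-126a-3p: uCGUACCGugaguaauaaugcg

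The assay counts fluorescent barcodes, and a normalized count is the count of a probe divided by a size factor of its sample, the geometric mean over the same 100 abundant miRNAs, and brought back to the average depth of the tissue samples. Total counts on mouse miRNAs ranged from 71260 to 288481 in CT (median 185389) and from 70164 to 313180 in M (median 123139). A detection level, the mean plus 2 SD of the 8 negative controls of each sample, lay between 22.9 and 102 normalized counts in CT and between 18.4 and 120 in M, so low counts are better resolved in M2 and M6 than in M1 and M4. The summed normalized count of the 4 housekeeping mRNA probes on the panel, which differs from the miRNA scale, was 2198 to 8485 in CT and 16335 to 141207 in M, with no overlap (exact two-sided permutation test, p = 0.00794, the smallest that 5 samples against 5 allow). Its part in the results was not tested. The tumors were less alike than the tubes. Pearson's r of log2 normalized counts over the 174 miRNAs was 0.914 to 0.975 between tubes and 0.618 to 0.94 between tumors, and M2 with M6, which share their genotype, gave the 0.94. These r values run across miRNAs, which are not independent replicates.

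Over all 566 probes, 58 were higher (10.2%) and 24 lower (4.24%) in M than in CT at an adjusted p under 0.05 (edgeR quasi-likelihood test with Benjamini-Hochberg adjustment). Of the 174 miRNAs with a mean of 50 or more, 49 were higher (28.2%) and 21 lower (12.1%), 40.2% in all. The counts of each family below are over all its probes on the panel and are read against 10.2% higher and 4.24% lower. The groups did not overlap for 34 of the 174 that were higher in every tumor (19.5%) and for 22 that were lower in every tumor (12.6%), against 7.42% and 5.12% of all probes. The mean of 50 is a limit on the larger group mean, so a probe can enter through the group where it is high. Shares among the 174 can be raised by that choice alone, and their excess over the shares of all probes is not read as a result. Just inside the limit lay miR-193b at 50.1 and just outside it miR-133a at 49.9. When each sample was left out in turn, 32 of the 49 and 10 of the 21 stayed past the threshold every time. The balance of higher and lower depends on the scaling. Of the called probes 70.7% were higher in M with the scaling used, 55.0% with TMM, 56.4% with median-of-ratios scaling, 50% with quantile normalization, 51.6% with each sample's own top 100, 37.2% with the total miRNA count, 81.2% with ligation controls and 87.5% with miR-425. The median log2 fold change of all probes moved from 0.29 to between -0.19 and 0.66 under these scalings, and none of the 49 or the 21 changed its sign under any of them. Calls depend on the setting as well. Of the 51 miRNAs examined singly and past the threshold, 25 fell short of it with ligation control scaling, 14 with CT, FT and M fitted together and 12 with the replicate number as a block. In the block fit CT5 and M6 were alone under their numbers and added nothing to the difference.

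miR-204 and miR-135a, which were abundant in every control tube, had the most negative log2 fold changes among miRNAs whose tubes and tumors did not overlap. Values are given from here on as normalized counts, in the order CT1 to CT5 and then M1, M2, M3, M4 and M6. miR-204 counted 1337, 1484, 997, 1591 and 2460 in the tubes and 34.8, 3.72, 13.8, 31.4 and 13.6 in the tumors. All 5 tumors were at or under their detection level, so miR-204 was at least 24.7-fold lower in M (edgeR, adjusted p = 1.85e-05). miR-135a, which is known to target Hoxa10 and Apc, counted 5904, 10414, 13417, 12456 and 15017 in the tubes and 82.9, 18.6, 60.6, 582 and 47.8 in the tumors. It was lower by a log2 fold change of -6.18 ± 0.896 (SE; edgeR, adjusted p = 0.000141), a fold of 72.5, and the highest tumor, M4, was still below the lowest tube. Their relatives were near background in both groups. miR-211, with a mean of 5.38 in CT and 16.4 in M, and miR-135b, with 30.8 and 29.2, did not pass the test. Since these are bulk samples, fewer cells of a type and less RNA per cell cannot be told apart, here and in all that follows.

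The miRNAs of ciliated cells were at background in every tumor. In the miR-34 and miR-449 family 4 of 7 probes on the panel were lower and none was higher, and the median of their log2 fold changes was -1.99 against 0.29 over all probes. miR-34b-5p counted 698, 119, 335, 408 and 389 in the tubes and 18.7, 14.0, 30.3, 12.1 and 10.9 in the tumors, at least 6.13-fold lower (edgeR, adjusted p = 7.24e-05). miR-34b-3p, the other arm of the same hairpin, counted 544, 155, 152, 304 and 307 in the tubes and 42.8, 6.52, 19.3, 19.3 and 8.19 in the tumors, at least 4.59-fold lower (edgeR, adjusted p = 0.000203). Tubes and tumors did not overlap for either arm. miR-34c was uneven among the tubes themselves. Its values were 2449, 0.655, 801, 1484 and 2.34 in the tubes and 2.68, 0.931, 2.76, 2.42 and 0.682 in the tumors. The count as deposited was 1, the lowest value in the table, in CT2, CT5 and all tumors, so no fold is given, and 3 of 5 tubes were above their detection level while CT2 and CT5 were not. Both of these held miR-34b. miR-449a counted 66.7, 33.4, 37.6, 43.9 and 39.8 in the tubes and 18.7, 1.86, 8.27, 21.8 and 9.55 in the tumors (edgeR, adjusted p = 0.0138). All 5 tumors and 2 of the tubes were at or under their detection level and the means were under 50 in both groups, so no fold is given, and without CT1 its adjusted p was 0.0517. miR-34a, which is not restricted to ciliated cells, had means of 47.8 and 36.0 and did not pass the test, and neither did miR-449b and miR-449c, whose means were 13.0 or less.

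All 3 members of the miR-29 family, which share a seed and are known to repress collagens and other matrix genes, were lower in every tumor than in every tube. They were unequally lower. miR-29a counted 3791, 2939, 3556, 3976 and 3959 in the tubes and 1062, 1274, 1116, 1346 and 1978 in the tumors. miR-29b counted 2560, 1923, 2156, 2692 and 3959 in the tubes and 74.9, 256, 154, 118 and 752 in the tumors. miR-29c counted 1923, 1186, 1569, 2201 and 2656 in the tubes and 104, 109, 79.9, 220 and 167 in the tumors. The differences were 14.0-fold for miR-29c (log2 fold change -3.81 ± 0.507, SE; edgeR, adjusted p = 0.000104), 9.75-fold for miR-29b (adjusted p = 0.00155) and 2.69-fold for miR-29a (adjusted p = 0.0288). The call for miR-29a was lost without any of CT1 to CT5, M2 or M3, with an adjusted p of up to 0.0777. A ratio of counts within a sample does not depend on the scaling. The ratio of miR-29c to miR-29a was 0.404 to 0.671 in the tubes and 0.0716 to 0.163 in the tumors, and that of miR-29b to miR-29a was 0.606 to 1.0 and 0.0705 to 0.380. In M1 miR-29b and miR-29c were under the detection level, and without M1 the ratios of the tumors were 0.0716 to 0.163 and 0.0880 to 0.380. With ligation control scaling the calls of miR-29b (edgeR, adjusted p = 0.116) and miR-29a (0.545) were lost. That of miR-29a was also lost with TMM, median-of-ratios and miR-425 scaling, with CT, FT and M fitted together (0.120) and with the replicate block (0.118).

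The miR-30 family, which is abundant in differentiated epithelia, was lower with smaller differences. All 5 members on the panel were lower in every tumor than in every tube and 3 of them passed the test. miR-30a counted 813, 548, 549, 492 and 625 in the tubes and 310, 205, 154, 237 and 233 in the tumors, a difference of 2.66-fold (edgeR, adjusted p = 0.034). miR-30b counted 188, 136, 82.2, 163 and 251 in the tubes and 40.1, 54.9, 55.1, 33.8 and 52.5 in the tumors, 3.43-fold lower (edgeR, adjusted p = 0.00576). In M1 and M4 miR-30b was under the detection levels of 120 and 107, which lie above CT3. Those tumors therefore cannot be ranked against CT3, and the fold rests partly on unresolved counts. miR-30e had means of 123 ± 9.92 (SD, n = 5) in the tubes and 55.5 ± 19.2 (SD, n = 5) in the tumors, with an adjusted p of 0.0429 by edgeR. The call for miR-30b held without any of the samples but was lost with ligation control scaling (edgeR, adjusted p = 0.330), with CT, FT and M fitted together (0.0586) and with the replicate block (0.0678), as were those of miR-30a and miR-30e. When samples were left out, the calls for miR-30a and miR-30e were lost without any of CT1 to CT5, M2 or M3 (and, for miR-30e, M4), with adjusted p-values of up to 0.101 and 0.103. miR-30c, with a log2 fold change of -1.64, and miR-30d, with -0.71, did not pass it. The 2 members of the miR-26 family were also below every tube in every tumor without passing the test. Their log2 fold changes were -0.97 for miR-26a and -1.08 for miR-26b.

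The list named smooth muscle and stroma, which also holds miR-1 of striated muscle, was lower in part. Of 5 probes on this list 3 were lower, and the summed counts of the list were 4713 to 13280 in the tubes and 626 to 3821 in the tumors. miR-143 counted 3101, 2787, 2286, 2580 and 1862 in the tubes and 463, 324, 449, 720 and 241 in the tumors, 5.75-fold lower without overlap (log2 fold change -2.52 ± 0.465, SE; edgeR, adjusted p = 0.00119, and 0.0962 with ligation control scaling). miR-145, made from the same precursor transcript, counted 3479, 10024, 2932, 8863 and 2518 in the tubes and 2279, 674, 912, 2745 and 325 in the tumors. Its groups overlapped, because M4 exceeded CT5. The log2 fold change of miR-145 was -2.0 ± 0.627 (SE; edgeR, adjusted p = 0.0419). The call was lost without CT1, CT2, CT3, CT4, M2 or M3, with an adjusted p of up to 0.122. It was also lost with miR-425 scaling and ligation control scaling (edgeR, adjusted p = 0.0996). The same held with CT, FT and M fitted together (0.0863) and with the replicate block (0.0678). miR-1, a miRNA of striated muscle, counted 417, 381, 480, 300 and 218 in the tubes and 32.1, 11.2, 5.51, 256 and 32.1 in the tumors. M4 again lay within the range of the tubes. The adjusted p of miR-1 was 0.045 by edgeR and rose to as much as 0.0970 without CT1, CT2, CT3, CT4, M1, M2, M3 or M6. Its call was also lost with miR-425 scaling and with CT, FT and M fitted together (edgeR, adjusted p = 0.0509). miR-133a and miR-133b were under 50 in both groups and not called, and the 3 probes of the miR-199 and miR-214 list, known from fibroblasts, gave 0 calls with log2 fold changes from -0.51 to 1.14. The summed counts of that list divided the tumors, at 1907 to 3526 in the tubes and 1185, 13654, 5017, 404 and 6145 in the tumors. M2, M3 and M6 lay above every tube, and M1 and M4 below every tube.

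Further abundant tube miRNAs were lower without overlap. miR-125b-5p, the most abundant of them, counted 14189, 15765, 12692, 16028 and 13375 in the tubes and 2828, 6581, 1758, 1730 and 7096 in the tumors, 3.60-fold lower (edgeR, adjusted p = 0.0184). It was the only one of the 5 probes for miR-125, miR-99 and miR-100 that passed the test, and miR-99a differed by a log2 fold change of -0.51. The ratio of miR-125b-5p to miR-99a was 3.57 to 8.45 in the tubes and 1.22 to 3.38 in the tumors. miR-148a counted 5713, 5686, 5818, 8796 and 9018 in the tubes and 490, 2534, 3006, 660 and 3334 in the tumors, 3.49-fold lower (edgeR, adjusted p = 0.0383). The call for miR-125b-5p was lost without CT4 (adjusted p = 0.0516), and that for miR-148a without CT1 to CT5, M1 or M4 (up to 0.0916). Both calls were also lost with TMM, median-of-ratios and miR-425 scaling. With ligation control scaling the adjusted p was 0.422 for miR-125b-5p and 0.478 for miR-148a (edgeR). With CT, FT and M fitted together it was 0.0645 and 0.159 (edgeR).

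**Figure D1:**
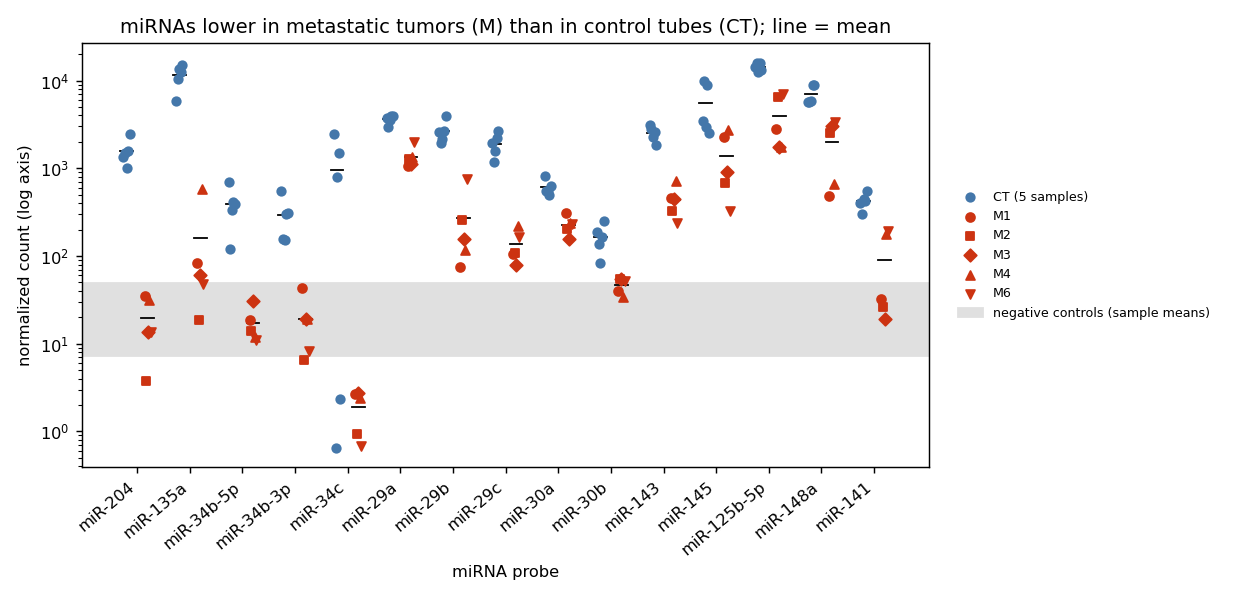
Normalized counts (log axis) of 15 miRNA probes that were lower in metastatic tumors, with 1 blue point for each of the 5 control tubes, 1 red symbol for each tumor and a black line at the group mean. The grey band spans the sample means of the negative controls (7.22 to 49.2), and the tumors lie in or under it for miR-204, miR-34b and miR-34c.

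The miR-200 family, which holds epithelial cells in their state by repressing Zeb1 and Zeb2, was even among the tubes and divided the tumors. Only miR-141 passed the test. miR-141 counted 402, 301, 443, 419 and 546 in the tubes and 32.1, 26.1, 19.3, 176 and 194 in the tumors, 4.67-fold lower without overlap (edgeR, adjusted p = 0.0257). Its call was lost without CT1, CT3 or CT4, with an adjusted p of up to 0.0540. The call of miR-141 was also lost with miR-425 scaling and ligation control scaling (edgeR, adjusted p = 0.236). With CT, FT and M fitted together its adjusted p was 0.0600 (edgeR). In M1, M2, M3, M4 and M6, miR-200a counted 26.8, 165, 33.1, 955 and 1224, against 1149 to 1478 in the tubes. miR-200b counted 353, 825, 124, 17226 and 3510 in the tumors and 2461 to 3244 in the tubes. miR-200c counted 104, 978, 46.8, 18142 and 2708 in the tumors and 4073 to 4935 in the tubes. miR-429 counted 29.4, 241, 19.3, 5510 and 1255 in the tumors and 837 to 1312 in the tubes. M1 and M3, the Brca2 -/- tumors, were below every tube for each of the 5 members, and so was M2. M4 was above every tube for miR-200b, miR-200c and miR-429 and below every tube for miR-200a and miR-141. The log2 fold changes of miR-200b, miR-200c and miR-429, 0.66, 0.01 and 0.41, were led by M4 and turn negative without it (-1.21, -2.18 and -1.45, edgeR, not past the threshold), and they also turn negative under some scalings. At their shared locus, miR-200a and miR-200b did not keep the ratio they had in the tubes. The ratio of miR-200a to miR-200b was 0.377 to 0.534 in the tubes and 0.0554 to 0.349 in the tumors, with miR-200a under the detection level in M1 and M3. For the other locus the ratio of miR-141 to miR-200c overlapped, at 0.0664 to 0.111 in the tubes and 0.00972 to 0.412 in the tumors. Both of its probes were under the detection level in M1 and M3.

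Other epithelial miRNAs were above the tubes in some tumors only. miR-205, a miRNA of basal and squamous epithelium, counted 139, 204, 140, 141 and 211 in the tubes and 42.8, 1483, 27.6, 300 and 13448 in the tumors. M2, M4 and M6 were above every tube and M1 and M3 below every tube. Its log2 fold change was 4.20 ± 1.23 (SE; edgeR, adjusted p = 0.0288), and the call was lost without M6 or any of CT1 to CT4, with an adjusted p of up to 0.211. miR-375, a miRNA of pancreatic islets and other secretory epithelia, counted 636, 259, 846, 913 and 483 in the tubes and 24.1, 28.9, 13.8, 4978 and 17.1 in the tumors. M4 was above every tube and the other tumors were under every tube, so the log2 fold change of 0.69 was not past the threshold, and without M4 it was -4.88 (edgeR, adjusted p = 1.53e-05). miR-9, best known from the nervous system, was also high in M4 only. It counted 7.65, 14.4, 9.90, 1.49 and 28.1 in the tubes and 29.4, 11.2, 13.8, 4425 and 10.2 in the tumors. Its call (edgeR, adjusted p = 0.0158) was lost without M4, CT1 or CT3, with an adjusted p of up to 0.663, so the difference is that of 1 tumor. miR-203, of stratified epithelium, had means of 46.1 in the tubes and 106 in the tumors and did not pass the test.

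**Figure D2:**
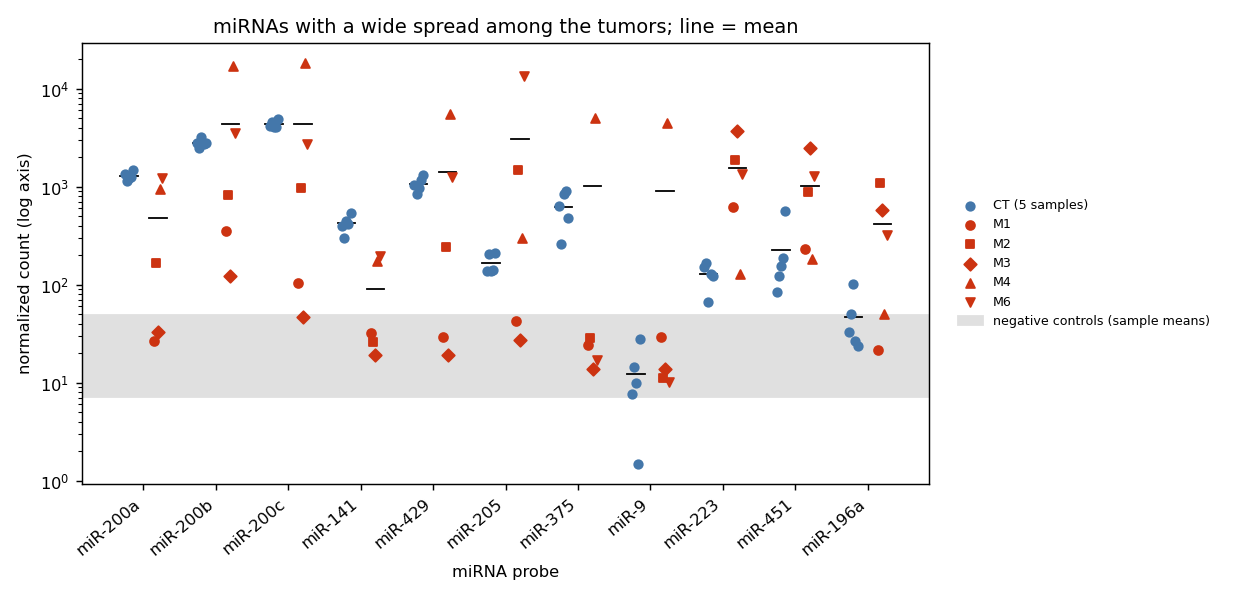
Normalized counts (log axis) of 11 miRNA probes whose tumor values spread widely, drawn as in the plot of lower miRNAs. The tubes are tight for the miR-200 family, while M1, M2 and M3 lie below them and M4 above them for miR-200b, miR-200c and miR-429.

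The let-7 family restrains growth genes in differentiated cells and shares the seed GAGGUAG. Of its 9 members 2 passed the test as higher and the other 7 did not pass it. All 9 log2 fold changes were positive with the scaling used, from 0.24 to 2.63 with a median of 0.89. The number past the threshold was 4 with DESeq2, with only probes of a group mean of 50 or more tested, or without M6. It was 0 with ligation control scaling. It was 1 with the methods' t-test, with CT, FT and M fitted together, with the replicate block or without CT1. let-7i counted 1470, 2246, 2557, 2137 and 1314 in the tubes and 15647, 11013, 7304, 19820 and 6258 in the tumors, 6.17-fold higher without overlap (log2 fold change 2.63 ± 0.482, SE; edgeR, adjusted p = 0.00119, and 0.136 with ligation control scaling). miR-98 counted 91.8, 153, 196, 171.9 and 131 in the tubes and 808, 290, 309, 1317 and 317 in the tumors, 4.08-fold higher without overlap (edgeR, adjusted p = 0.0158). Its adjusted p was 0.0546 without CT1 and 0.283 with ligation control scaling. With CT, FT and M fitted together it was 0.0586, and with the replicate block 0.0623 (edgeR). let-7a counted 2978, 3857, 5041, 4870 and 2933 in the tubes and 7603, 4352, 3587, 5360 and 2306 in the tumors, and the sign of its log2 fold change of 0.24 changes with the scaling. That value lay at the low end of the family, and let-7a is the denominator of both ratios that follow. In every tumor let-7i exceeded let-7a, with ratios of 2.04 to 3.70, while in the tubes the ratio was 0.439 to 0.582. The ratio of miR-98 to let-7a was 0.0308 to 0.0447 in the tubes and 0.0666 to 0.246 in the tumors. A ratio between different probes also reflects their own efficiencies, so only its change between groups is read.

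The miR-17-92 cluster and its relatives, which Myc induces and which favour cell division, rose in part. Of 11 probes 4 were higher and 0 lower, each without overlap between tubes and tumors. The probe for miR-106a and miR-17, which cannot tell them apart, counted 345, 331, 266, 277 and 283 in the tubes and 795, 1102, 2554, 440 and 1536 in the tumors, 4.27-fold higher (edgeR, adjusted p = 0.00952). That for miR-20a and miR-20b counted 441, 747, 772, 506 and 595 in the tubes and 1776, 1401, 4979, 2518 and 2616 in the tumors, 4.34-fold higher (edgeR, adjusted p = 0.00538). miR-93 counted 42.6, 53.7, 28.7, 52.1 and 39.8 in the tubes and 150, 138, 262, 133 and 156 in the tumors, 3.83-fold higher (edgeR, adjusted p = 0.00226). These miRNAs share the seed AAAGUGC. miR-25, which has another seed and lies beside miR-93, counted 424, 514, 413, 645 and 368 in the tubes and 3791, 2036, 5883, 3248 and 2237 in the tumors, 7.27-fold higher (log2 fold change 2.86 ± 0.478, SE; edgeR, adjusted p = 0.000496). miR-19a, miR-19b and miR-106b, from the same transcripts, did not pass the test, with log2 fold changes of 0.35, 0.14 and 0.20. That of miR-19b turns negative with some scalings. miR-18a, miR-18b, miR-92a and miR-363, the other probes of the list, did not pass it either. With the scaling used the log2 fold changes of all 11 probes were positive, from 0.14 to 2.86 with a median of 1.0. Within a sample, the ratio of the miR-20a and miR-20b probe to miR-19b was 4.0 to 12.1 in the tubes and 25.5 to 42.0 in the tumors. The ratio of miR-25 to miR-106b was 6.06 to 13.8 and 26.2 to 106.8. miR-19b and miR-106b were at or under the detection level in M1, M4 and 1 or 2 tubes, and without those samples the ratios were 4.0 to 11.5 against 26.4 to 42.0 and 6.06 to 13.8 against 26.2 to 106.8. None of these 4 calls was lost when any sample was left out. All 4 were lost with ligation control scaling (adjusted p of 0.0941, 0.136, 0.0710 and 0.0611 in the order given), and that of the miR-106a and miR-17 probe also with the replicate number as a block (0.106).

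**Figure D3:**
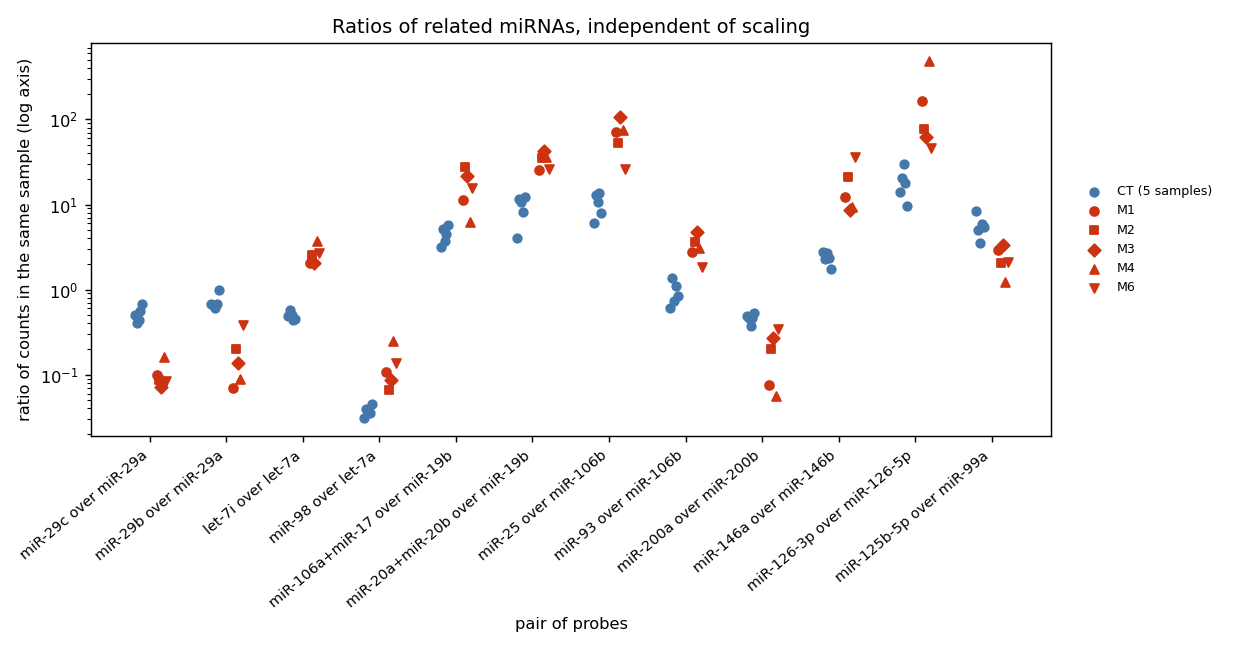
Ratio of the counts of 12 pairs of related probes in the same sample (log axis), with 1 blue point per control tube and 1 red symbol per tumor. Only pairs whose tubes and tumors did not overlap are drawn, for example miR-29c over miR-29a at 0.404 to 0.671 against 0.0716 to 0.163.

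Of 16 such pairs, 9 had a higher ratio in every tumor than in every tube, 4 a lower one and 3 overlapped. In 11 of the pairs a probe was at or under the detection level in some of these samples, and in 1 of them, the arms of miR-532, in all 10. Without those samples 8 pairs were higher and 4 lower in every tumor left. The pairs were chosen by hand, and many set a called member against a relative that was not called, so their separation was partly built in. No share over other pairs of probes was taken, and the pairs were not tested. They include the 2 arms of miR-126, a miRNA of endothelial cells, whose ratio of the 3p to the 5p arm was 9.62 to 29.6 in the tubes and 46.2 to 483.3 in the tumors. The 5p arm was under the detection level in M1 and M4, and the other 3 tumors had ratios of 46.2 to 76.3. miR-126-3p counted 3941, 6376, 6148, 5064 and 3830 in the tubes and 17274, 17770, 17422, 19856 and 7720 in the tumors, 3.16-fold higher without overlap (edgeR, adjusted p = 0.0155). miR-126-5p had a log2 fold change of -0.83 and did not pass the test. The call for miR-126-3p was lost without CT1 or CT4, with an adjusted p of up to 0.0540, and with ligation control scaling (0.343), CT, FT and M fitted together (0.155) or the replicate block (0.0766).

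Of the 7 probes on a list of miRNAs known from tumors and hypoxia or named by the study, 5 rose, 4 of them without overlap. In the miR-146 family, a family of inflammation, 1 of the 2 probes rose as well. The study had named miR-21, miR-22, miR-210, miR-1224, miR-7a and miR-146a as higher in these same tumors. Among others it had also named let-7i, miR-98, miR-126-3p, miR-532-5p, miR-486 and miR-122 as higher and miR-34b-3p as lower. The counts of both lists, and the calls of those further miRNAs, are therefore not independent of the study's choice and add no support. miR-21, which is raised in many kinds of tumor, counted 2573, 1182, 1490, 1031 and 1164 in the tubes and 4473, 12694, 4731, 3751 and 11052 in the tumors, 4.93-fold higher (log2 fold change 2.30 ± 0.512, SE; edgeR, adjusted p = 0.00472). miR-22 counted 1071, 1689, 2089, 1715 and 1726 in the tubes and 8189, 7223, 7538, 11129 and 6519 in the tumors, 4.90-fold higher (edgeR, adjusted p = 0.00125). M2 and M6 had the most miR-21, while miR-22 was more even. miR-146a, which NF-kB induces and which restrains it, counted 223, 202, 152, 171 and 162 in the tubes and 1493, 970, 499, 602 and 748 in the tumors, 4.73-fold higher (edgeR, adjusted p = 0.0027). miR-146b, with the same seed, did not pass the test with a log2 fold change of -0.36. The ratio of miR-146a to miR-146b was 1.73 to 2.79 in the tubes and 8.62 to 36.5 in the tumors, or 2.32 to 2.79 and 8.62 to 21.3 without CT5, M4 and M6, where miR-146b was under the detection level.

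miR-210, a miRNA induced by hypoxia, counted 53.5, 83.2, 92.1, 66.2 and 63.2 in the tubes and 1635, 441, 738, 926 and 915 in the tumors, 12.9-fold higher (log2 fold change 3.69 ± 0.505, SE; edgeR, adjusted p = 0.000107). miR-132, which CREB induces, counted 76.5, 161, 90.1, 97.5 and 93.7 in the tubes and 2084, 625, 2551, 454 and 258 in the tumors, 11.5-fold higher (edgeR, adjusted p = 0.00119). M1 and M3 had the most miR-132. miR-378, from an intron of Ppargc1b, counted 160, 182, 163, 166 and 98.4 in the tubes and 888, 478, 929, 1022 and 344 in the tumors, 4.74-fold higher (edgeR, adjusted p = 0.003). miR-532-5p counted 15.3, 32.8, 26.7, 28.3 and 32.8 in the tubes and 463, 244, 449, 239 and 130 in the tumors (log2 fold change 3.48 ± 0.492, SE; edgeR, adjusted p = 0.000114). Only 1 of the 5 tubes was above its detection level for it, and its other arm, miR-532-3p, was at background in both groups with means of 7.85 and 7.27. miR-1224, a miRNA spliced out as an intron, counted 51.4, 51.1, 71.3, 42.4 and 53.9 in the tubes and 13486, 494, 4075, 2712 and 750 in the tumors. This 79.5-fold difference (log2 fold change 6.31 ± 0.868, SE; edgeR, adjusted p = 0.000107) rests on tumors that span 494 to 13486. The calls of miR-21, miR-22, miR-146a, miR-210, miR-132, miR-378, miR-532-5p and miR-1224 held without any of the samples. Those of miR-21, miR-22, miR-146a and miR-378 were lost with ligation control scaling (edgeR, adjusted p of 0.0544, 0.147, 0.116 and 0.151), and that of miR-21 also with the replicate block (0.0631). miR-210 and miR-532-5p stayed past the threshold in every alternative run.

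miR-7a, miR-181a, miR-130b and miR-196a rose with calls that depended on a few samples. miR-181a counted 393, 818, 781, 749 and 490 in the tubes and 3908, 1185, 1951, 1426 and 978 in the tumors (edgeR, adjusted p = 0.045). miR-130b counted 32.8, 51.1, 26.7, 32.7 and 49.2 in the tubes and 142, 66.1, 190, 89.4 and 53.9 in the tumors (edgeR, adjusted p = 0.0271). miR-7a counted 51.4, 35.4, 30.7, 94.5 and 51.5 in the tubes and 227, 122, 160, 979 and 70.3 in the tumors (edgeR, adjusted p = 0.0151). Tubes and tumors do not overlap for miR-181a and miR-130b, and overlap for miR-7a through M6. miR-196a, from the Hox clusters, counted 32.8, 50.5, 102, 26.8 and 23.4 in the tubes and 21.4, 1092, 576, 50.8 and 319 in the tumors (edgeR, adjusted p = 0.0166). M1, M4 and CT5 were under their detection levels (120, 107 and 102), so M1 cannot be ranked against the tubes. Leaving out a sample took the adjusted p as high as 0.131 for miR-181a (lost without CT1 to CT5, M1 or M3), 0.0805 for miR-130b (CT1, CT3, CT4 or M3), 0.0532 for miR-7a (CT3) and 0.0545 for miR-196a (CT1 or CT4). With ligation control scaling the calls of miR-181a (edgeR, adjusted p = 0.492), miR-130b (0.161) and miR-7a (0.0890) were lost as well. Those of miR-181a (0.174) and miR-130b (0.0614) were lost with CT, FT and M fitted together. The replicate block lost miR-181a (0.161) and miR-196a (0.0905).

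Single miRNAs of other cell types rose, 1 of 5 on a leukocyte list, 1 of 3 on an erythroid list and 1 of 3 on a liver list, and their part in the results above was not tested. miR-223, of neutrophils and other myeloid cells, counted 153, 168, 67.3, 128 and 124 in the tubes and 615, 1885, 3739, 128 and 1342 in the tumors, 12-fold higher (edgeR, adjusted p = 0.00205). M4 lay among the tubes. miR-142-3p, miR-142-5p and miR-150 had log2 fold changes of 0.93, 1.24 and 0.87 and did not pass the test, and miR-155 was at the lowest count of the table or close to it in all samples, with means of 1.16 and 1.89. The summed leukocyte list was 593 to 1164 in the tubes and 967 to 6301 in the tumors. Of the erythroid list miR-486 was higher, at 13.1, 24.2, 23.8, 19.3 and 25.8 in the tubes and 409, 112, 289, 143 and 81.9 in the tumors. The tubes were all under their detection level, so this was at least 4.39-fold (edgeR, adjusted p = 0.000254). miR-451, the main miRNA of red cells, counted 85.2, 123, 156, 186 and 567 in the tubes and 230, 879, 2507, 184 and 1286 in the tumors. It overlapped and fell short of the threshold (edgeR, adjusted p = 0.05004), and miR-144 did not pass the test. The summed erythroid list was 113 to 675 in the tubes and 358 to 2860 in the tumors.

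miR-122, of hepatocytes, counted 13.1, 7.21, 9.90, 12.6 and 14.1 in the tubes and 29.4, 88.5, 24.8, 65.3 and 129 in the tumors, at least 1.43-fold higher (edgeR, adjusted p = 0.00119). It was above the detection level in 2 of 5 tumors. miR-192 and miR-194, the other members of the liver list, did not pass the test, and their highest values, 285 and 237, were both in M4.

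Of the 10 largest log2 fold changes upward, 6 were in probes of the miR-2132 to miR-2146 series. These were listed as miRNAs in older releases of the miRNA registry, most of them have since been withdrawn, and many match ribosomal RNA. Of the 13 probes on that list with miR-720, a piece of a transfer RNA, 8 rose and none fell, and the median of the 13 log2 fold changes was 3.88. miR-2134 counted 7.65, 14.4, 16.8, 7.44 and 11.7 in the tubes and 11155, 116, 3378, 2175 and 73.7 in the tumors, at least 71.7-fold higher (edgeR, adjusted p = 0.000181). miR-2133 counted 4.37, 3.28, 5.94, 5.95 and 18.7 in the tubes and 2790, 168, 1312, 186 and 184 in the tumors, at least 19.7-fold higher (edgeR, adjusted p = 0.000114). miR-2132 was at least 20.5-fold higher (edgeR, adjusted p = 0.000803), with tumor values of 2737, 101, 771, 1187 and 35.5. For these 3 probes the tubes were all under their detection level and M1 was the highest tumor. miR-2141 counted 208, 115, 74.2, 72.2 and 82.0 in the tubes and 5856, 2129, 9481, 3934 and 2340 in the tumors, 43.0-fold higher (edgeR, adjusted p = 2.88e-05). miR-2140 was 22.2-fold higher (edgeR, adjusted p = 0.000254) with tumor values of 1672, 146, 865, 457 and 157. miR-2137 was at least 6.71-fold higher (edgeR, adjusted p = 0.00228) with tumor values of 1022, 58.7, 372, 70.1 and 59.4. Within this series M2 and M6 had the lowest tumor values for all 6 probes named above. miR-720 itself did not pass the test with a log2 fold change of 0.36.

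miR-804, which lies within the span of Cby3 on chromosome 11, counted 27.3, 34.1, 23.8, 20.1 and 39.8 in the tubes and 457, 46.6, 226, 1827 and 46.4 in the tumors, at least 11.0-fold higher (edgeR, adjusted p = 0.00312). miR-1944, abundant in both groups, counted 1404, 2078, 3316, 1143 and 949 in the tubes and 11899, 6709, 6745, 39576 and 5578 in the tumors, 7.93-fold higher (edgeR, adjusted p = 0.00312). miR-1983, whose hairpin holds a transfer RNA sequence, counted 6.56, 9.17, 13.9, 9.67 and 7.03 in the tubes and 40.1, 44.7, 121, 84.6 and 73.7 in the tumors, at least 1.55-fold higher (edgeR, adjusted p = 0.000169).

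**Figure D4:**
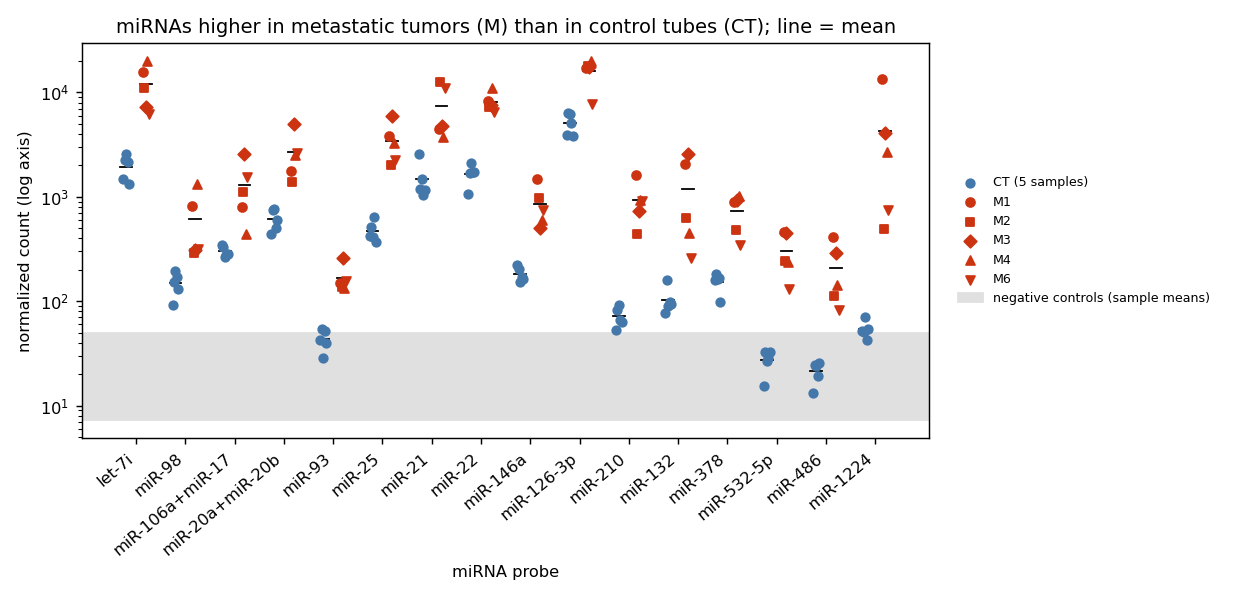
Normalized counts (log axis) of 16 miRNA probes that were higher in metastatic tumors, drawn as in the plot of lower miRNAs. Tubes and tumors do not overlap for any probe drawn, and the tumors spread most for miR-1224, from 494 to 13486.

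Many families were even between tubes and tumors or mixed. The 5 probes of the miR-23, miR-27 and miR-24 list gave 0 calls, with log2 fold changes from -0.69 to 0.28. The miR-15 and miR-16 family had 0 of 5 called, with miR-15a at 1.49 and miR-16 at 1.15 on the log2 scale. The imprinted Dlk1-Dio3 cluster, the largest list, had 1 of 53 probes higher, none lower and a median of 0.01 on the log2 scale, and only 6 of its probes reached a mean of 50. The miR-183, miR-221 and miR-222, and miR-103 and miR-107 lists gave 0 calls. In the Hox cluster list miR-196a was the only call, and miR-10b had a log2 fold change of -0.83. Over the 174 miRNAs, 104 did not pass the test, with log2 fold changes from -1.64 to 2.43. Of the 70 that did, 46 stand in the 33 lists. Among the 24 outside them, miR-1198 had means of 31.0 and 218, miR-335-5p of 60.9 and 348, miR-1937c of 897 and 183 and miR-129-3p of 70.9 and 17.8 in tubes and tumors, and these examples were chosen with their values known.

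**Figure D5:**
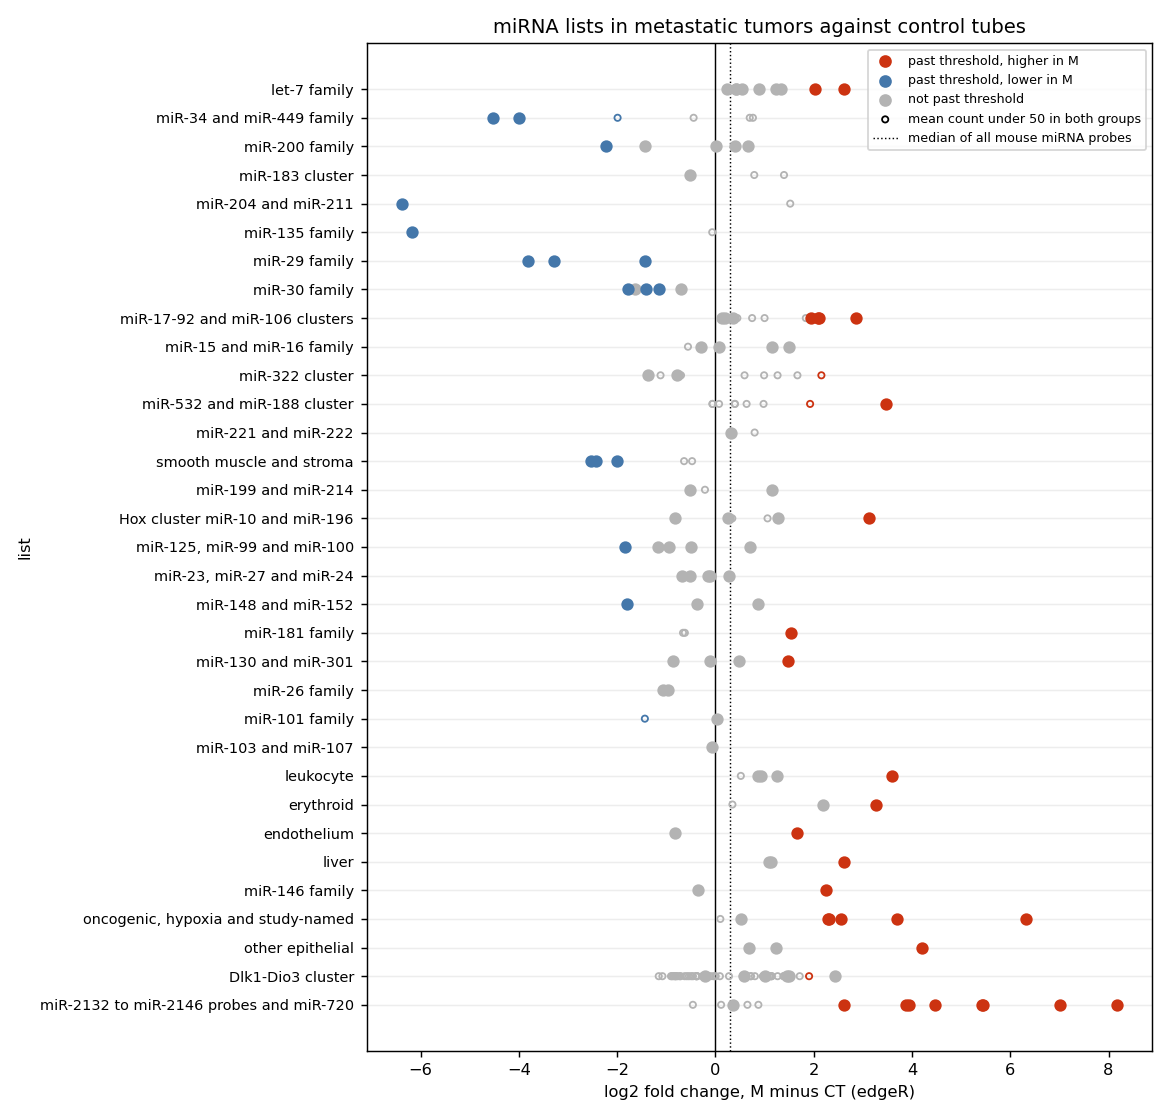
log2 fold change of M over CT (edgeR) for each probe of 33 miRNA lists, with red and blue for those past the threshold, large filled points for a mean of 50 or more in a group and a dotted line at the median of all probes (0.29). miR-34c, whose tumor counts were at the lowest value of the table, is not drawn; all 3 miR-29 members lie to the left and 8 of 13 probes of the miR-2132 series to the right.

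The tumors were also compared with the 5 doxycycline-induced tubes, which were Brca1 -/-, Brca2 -/- or Brca2 -/+. Of 566 probes 9 passed the threshold (1.59%), 5 higher (0.883%) and 4 lower (0.707%) in M. The 4 lower ones were the tube miRNAs already named. miR-135a ranged from 407 to 27238 in the induced tubes and was lower in M by a log2 fold change of -6.04 (edgeR, adjusted p = 0.00284). miR-204 ranged from 61.6 to 1171 there and was at least 9.44-fold lower in M (edgeR, adjusted p = 0.00284). miR-34b-5p ranged from 28.4 to 681 and was at least 3.59-fold lower (edgeR, adjusted p = 0.012). miR-34c ranged from 1.99 to 1098 and was also past the threshold (adjusted p = 0.00147), with the floor values described above. The 5 higher ones were miR-223, at 39.8 to 195 in the induced tubes (log2 fold change 3.59, adjusted p = 0.031), miR-2133, miR-2137, miR-1983 and, through M4, miR-9. miRNAs that were higher in M than in CT, such as let-7i, miR-22, miR-126-3p and miR-210, had log2 fold changes against the induced tubes of 0.19, 0.54, -0.26 and 0.95 and did not pass the test, and the induced tubes spread over 897 to 27178, 1295 to 16178, 2825 to 54989 and 42.5 to 1732 normalized counts. The comparisons of M with CT and with the induced tubes share the tumors, so they are not independent. The count of 9 depended on single samples and was 33 without FT2, 5 without FT1, 4 without FT3, 5 without FT4, 18 without M4 and 15 without M6.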

How the data were processed

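RNA (100 ng per tissue sample) from the tubes and tumors was profiled by the authors with the NanoString nCounter mouse miRNA assay. They deposited whole-number counts for 626 probes, which do not carry their normalization, and all columns matched a sample (0 unmatched). The 60 probes that are not for mouse miRNAs were kept out of the tests. As in the study's methods, each tissue sample was scaled to the geometric mean over 100 miRNAs, those with the highest mean over 15 tissue samples, without background subtraction. With these geometric means as library sizes, edgeR 4.0.16 in R 4.3.3 (quasi-likelihood, 566 miRNAs, Benjamini-Hochberg, threshold 0.05) compared M with CT and M with FT. Fold changes and adjusted p-values are edgeR's. A fold is "at least" where every sample of a group was at or under its detection level, which then stood in for its value. The fit was tested on simulated data. Named are the 10 largest increases and decreases among called miRNAs with no overlap and a mean of 50 or more, and members of 33 lists from general knowledge. The members and lists were chosen with earlier results of these data known. Sample numbers were not used as pairs. Alternatives used DESeq2 1.42.0 and limma 3.58.1. Figures used Python 3.11.15 and matplotlib 3.10.9. Alleles of the model's other genes are not reported here.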

Additional observations from a re-analysis of the deposited data

Results flagged for a closer look

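Among the 69 miRNAs examined singly, 138 groups of 5 samples were searched for a sample far from the others, of which chance gives about 1 in 20, and 6 had one. These were M4 for miR-9 at 4425 and for miR-375 at 4978 normalized counts, M3 for miR-93 at 262, M6 for miR-126-3p at 7720, CT1 for miR-532-5p at 15.3 and CT5 for miR-378 at 98.4.

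The change from CT differed between M and the induced tubes for 9 miRNAs, tested directly as M against the induced tubes (edgeR, log2). The difference was 5.62 for miR-2133, 3.70 for miR-2137, 5.93 for miR-9, 2.53 for miR-1983, 3.59 for miR-223, -4.97 for miR-204, -6.04 for miR-135a, -3.75 for miR-34b-5p and -7.92 for miR-34c. Every tumor was at or under its detection level for miR-204, miR-34b-5p and miR-34c, and every induced tube for miR-2133, miR-2137, miR-9 and miR-1983, so the sizes of these 7 differences depend on counts at background.

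The housekeeping mRNA probes, which no miRNA comparison uses, had a higher sum in the tumors than in the tubes, with a log2 difference of 3.37.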

How the results depend on the processing

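Of 51 single miRNAs past the threshold for M against CT, 11 stayed past it under every alternative run, among them miR-204, miR-135a, miR-34b-5p, miR-29c and miR-210, and 18 under every one but the t-test named in the methods. That t-test lost 26 of the 51, among them miR-132 (adjusted p = 0.0933), miR-1224 (0.0516) and the miR-106a and miR-17 probe (0.108). The count of called probes for M against CT was 82. It was 151 with TMM, 163 with median-of-ratios scaling, 48 with ligation control scaling, 152 with negative controls subtracted, 124 with DESeq2, 32 with the methods' t-test (123 before adjustment), 52 with CT, FT and M fitted together, and 50 to 101 with 1 sample left out. It was lowest without CT1 (51), CT3 (52) and CT4 (50). For M against the induced tubes the count was 9. It was 4 with quantile normalization, 2 with miR-425 scaling, 23 with total miRNA count scaling, 29 with DESeq2 (which gave no adjusted p for 272 probes), 0 with the methods' t-test (33 before adjustment; edgeR had 47), 23 with the 3 groups fitted together and 4 to 33 with 1 sample left out. The causes of these differences were not tested.

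Sample numbers were not pairs in the labels, and deviations of samples with the same number correlated at 0.0211, 0.0936, -0.154 and -0.127 for numbers 1 to 4. With the replicate number as a block the counts were 70 for M against CT and 2 for M against the induced tubes. In these fits M6 and CT5 or FT5 had no partner of the same number and added nothing to the difference. The other numbers joined samples that the labels do not pair.

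The log2 fold change changed sign for 7 miRNAs, of which only miR-205 was past the threshold, and the causes were not tested. miR-205 was -0.018 with the replicate block, in which M6, its highest tumor, added nothing to the difference. miR-375 was -3.33 with quantile normalization, -0.11 with total count scaling, -3.19 with limma, -3.24 with the methods' t-test, -3.37 with the block and -4.88 to 1.01 with 1 sample left out. In the same order miR-200b was -1.76, -0.038, -1.25, -1.25, -1.98 and -1.21 to 0.97, and miR-429 was -2.28, -0.29, -2.06, -2.08, -2.89 and -1.45 to 0.72. miR-200c was -3.26, -0.70, -2.53, -2.54, -3.38 and -2.18 to 0.33, and also -0.29 with TMM, -0.32 with median-of-ratios, -0.27 with each sample's own top 100 and -0.069 with ligation control scaling. let-7a was -0.028 with TMM, -0.0076 with median-of-ratios, -0.24 with quantile, -0.083 with own top 100, -0.10 with ligation control, -0.28 with total count scaling and -0.013 to 0.41 with 1 sample left out. miR-19b was -0.18 with quantile, -0.14 with own top 100 and -0.31 with total count scaling, -0.12 with the block and -0.043 to 0.35 with 1 sample left out.

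Differences among miRNAs under the detection levels could not be seen at this depth, and the high levels in CT5, M1 and M4 limit them most.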
